A study of Mus musculus with 12 samples.

Results

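Genes for histone modifiers, chromatin remodellers and corepressor complexes were examined as a set of 48 listed members, each found by its symbol in the deposited table of log2 expression values. All 48 were present among the 24538 gene rows, and all 48 had a mean of at least 3 over the 12 libraries, the minimum for testing, as did 12436 genes in all. RNA sequencing had been done on CD4+ T cells from spleen and lymph nodes of C57BL/6 mice. The cells carried CD4cre;Smad4fl/fl (KO), in which a Cre recombinase under the Cd4 promoter acts on floxed Smad4 from the thymic stage at which Cd4 is switched on, or were wild type (WT). Both genotypes had been activated and kept with IL-6 and a TGF-β receptor inhibitor, the WT cells included. Libraries were made from KO and from WT cells at 12 h and at 3 h of treatment, 3 libraries in each of the 4 groups. The labels do not say that the 3 libraries of a group came from separate animals, so p-values measure the spread between these libraries, which may be technical in part.

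DNA in the nucleus is wound on histones, and enzymes that add or remove methyl and acetyl groups on the histone tails set how easily a gene is read. Polycomb repressive complex 2 (PRC2) writes the repressive H3K27 methyl mark and KDM6B removes it, acetyltransferases such as p300 mark active enhancers, and histone deacetylases (HDACs) take the acetyl groups off. SMAD4 joins receptor-activated SMADs on DNA, where they recruit p300 and CBP, while SKI and SnoN bind SMADs and bring in NCOR, SIN3A and HDACs. In CD4+ T cells these enzymes take part in the opening and closing of cytokine and lineage genes as the cells are activated and differentiate.

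The Smad4 value did not check the genotype labels. It averaged 11.54 ± 0.06 in KO and 11.51 ± 0.02 in WT libraries at 12 h, and 11.65 ± 0.02 in KO and 11.65 ± 0.07 in WT libraries at 3 h (SD, n = 3), and counts summed over a gene can still hold reads from exons outside the floxed part, so KO and WT are named from the labels alone. Skil, which encodes SnoN, was higher in KO by 1.12 ± 0.09 at 12 h (SE, adjusted p = 1.63e-05 in limma) and by 0.99 ± 0.09 at 3 h (0.000137). Ski differed by 0.05 ± 0.06 at 12 h and -0.00 ± 0.06 at 3 h and was not called. The labels give female mice, but the 4 replicate 2 libraries, 1 per group, held Xist at 4.55 to 5.70 and the Y-linked demethylase gene Kdm5d at 10.99 to 11.56, against 15.08 to 16.27 and 2.28 to 2.61 in the 8 others. The replicate 2 values are those of male cells, so the spread within each group includes a difference in sex. The summed level of 9 CD4 T cell markers was 17.49 to 17.64 in KO and 17.52 to 17.59 in WT libraries on the log2 scale. The summed level of 14 B cell markers was 9.65 to 9.99 in KO and 10.05 to 10.40 in WT libraries at 12 h, and 11.69 to 12.06 in KO and 12.09 to 12.35 in WT libraries at 3 h, so the genotypes did not overlap at either time, although 0 of the 14 were called. The summed level of 10 CD8 T and NK cell markers also differed without overlap at 12 h, 9.73 to 10.12 in KO and 10.19 to 10.43 in WT libraries, and overlapped at 3 h, with 11.00 to 11.42 in KO and 11.32 to 11.55 in WT libraries. Of the 6 of these markers tested, 0 were called at either time. At 12 h 4 of the 6 were lower in KO and 2 were higher, Cd8a and Klrd1. The summed level of 30 proliferation genes was 17.08 to 17.17 in KO and 17.18 to 17.34 in WT libraries at 12 h, without overlap, and 15.81 to 15.91 in KO and 15.79 to 15.88 in WT libraries at 3 h. The part of these in the KO against WT results was not tested. Each group held 1 replicate 2 library, and the member calls that changed when these libraries were left out are named with the results.

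Per kilobase of annotated exon, Kdm6b had the highest level of the 48 members at 3 h, and Chd4 at 12 h. Levels between genes are compared only on this scale, the deposited log2 value minus the log2 of the exon length in kilobases. Kdm6b averaged 11.32 in KO and 10.80 in WT at 12 h, and 13.68 in KO and 13.62 in WT at 3 h. Chd4, the helicase of the nucleosome remodelling and deacetylase complex NuRD, averaged 12.84 in KO and 12.86 in WT at 12 h, and 13.08 in KO and 13.04 in WT at 3 h. Hdac7, a class IIa deacetylase, stood next to Chd4 at 12 h with 12.60 in KO and 12.51 in WT, against 10.41 in KO and 10.43 in WT at 3 h. At the low end were Hdac9, another class IIa deacetylase, with a mean of 0.13 over the 12 libraries, Hdac5 with 6.17 and the acetyltransferase gene Kat2b with 6.83. The members not named here had means between 7.61 and 12.33.

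**Figure D1:**
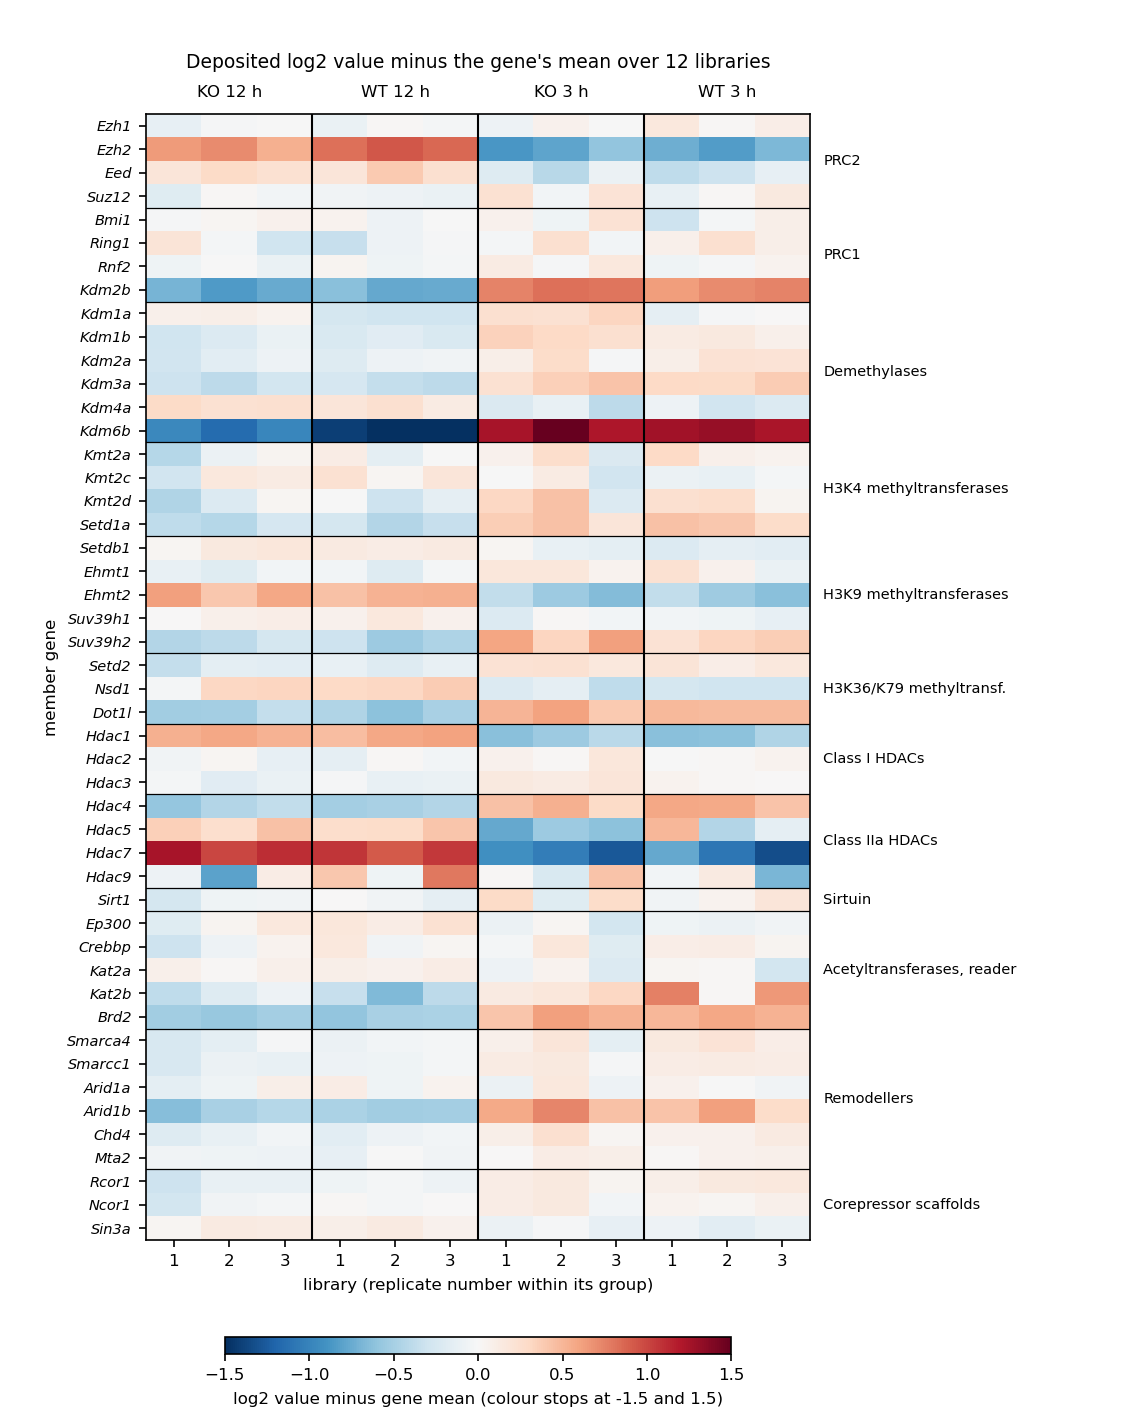
Each row is 1 of the 48 members, grouped by role, and each column 1 library; colour gives the deposited log2 value minus the gene's mean over the 12 libraries, red above and blue below. Most contrast runs between the 12 h columns and the 3 h columns, with Kdm6b and Hdac7 the strongest rows, while KO and WT columns of a time look alike in most rows.

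Of the 48 members, a pair of lysine demethylase genes was higher in KO than in WT cells. At 12 h, Kdm1a and Kdm6b were called higher in KO (adjusted p under 0.05) and 0 members were called lower. That is 4.17% of the members, beside 0.667% of all genes tested, 0.499% higher and 0.169% lower. At 3 h, Kdm1a was called higher and 0 members were called lower, or 2.08%, beside 1.05% of all genes tested, 0.298% higher and 0.748% lower. Both differences were well under 1 log2 unit. In these bulk samples fewer cells of a type and less RNA per cell cannot be told apart.

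Kdm1a encodes LSD1, a flavin-dependent demethylase of mono- and dimethylated H3K4 that works with the CoREST scaffold and class I deacetylases. The gene lies on the minus strand of chromosome 4, 136550540 to 136602723 (GRCm38, GENCODE M21), and shares no exonic base with another annotated gene. Its level was 13.07, 13.08 and 13.05 in the KO libraries at 12 h, against 12.73, 12.69 and 12.69 in the WT libraries. Every KO library at 12 h lay above every WT library, and the spread within each group was under 0.05. The difference was 0.36 ± 0.05 on the log2 scale, or 1.29-fold (SE, n = 3 per group; limma adjusted p = 0.00264). At 3 h the KO libraries had 13.23, 13.22 and 13.31, against 12.86, 12.98 and 13.00 in the WT libraries, again with no overlap. This difference was 0.30 ± 0.05, or 1.23-fold (adjusted p = 0.016). Averaged over both times it was 0.33 ± 0.04 (adjusted p = 0.000169), where 2.29% of all genes tested were called and Kdm1a and Kdm6b were the members called. The Kdm6b mean, 0.29, held in 14 of 20 alternatives and was 0.24 without the replicate 2 libraries (adjusted p = 0.0626, in a range of 0.00445 to 0.125).

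The size of the Kdm1a difference moved little between settings, whereas its call at 3 h did not hold in all of them. At 3 h the adjusted p was 0.0994 without the trend in the prior, 0.0999 with the compared groups alone, 0.0637 without KO replicate 1 and 0.0664 without WT replicate 1. Without the 4 replicate 2 libraries the difference was 0.34 at 3 h (adjusted p = 0.078) and 0.35 at 12 h (0.152), neither of them called. Over all 21 alternatives the adjusted p ran from 0.0118 to 0.0999 at 3 h and from 0.000172 to 0.152 at 12 h. The mean over both times was called in all 20 alternatives run for it. The 250 bases before the Kdm1a start, shown because Kdm1a was the member called higher in KO at both times, follow in the direction of transcription and were taken from the RefSeq promoter table. Capitals would mark CAGAC, a letter string bound by SMADs, on either strand, and this window holds none.
Kdm1a, GRCm38.p6, chr4:136602724-136602973, minus strand: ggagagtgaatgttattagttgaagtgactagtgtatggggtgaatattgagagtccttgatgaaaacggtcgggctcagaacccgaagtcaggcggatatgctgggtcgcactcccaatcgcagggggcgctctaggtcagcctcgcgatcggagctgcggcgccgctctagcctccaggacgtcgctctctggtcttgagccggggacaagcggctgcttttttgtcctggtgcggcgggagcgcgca
The string occurred in 42.2% of 27025 such promoters in the table and in 16 of the 43 members found there, or 37.2%.

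Kdm6b encodes JMJD3, which removes the H3K27 trimethyl mark laid down by PRC2. It lies on the minus strand of chromosome 11, 69398508 to 69413675, and 4.11% of its exonic bases overlap an annotated transcript on the opposite strand, whose reads could not be told apart since the kit does not mark strand. Its level at 12 h was 14.18, 14.00 and 14.17 in the KO libraries, against 13.74, 13.46 and 13.59 in the WT libraries. The groups at 12 h did not overlap, and KO was higher by 0.52 ± 0.08, or 1.43-fold (SE, n = 3 per group; limma adjusted p = 0.00661). At 3 h the KO libraries had 16.39, 16.67 and 16.37, against 16.41, 16.46 and 16.38 in the WT libraries. These ranges overlapped and the difference was 0.06 ± 0.08 (adjusted p = 0.924). The difference at 12 h minus that at 3 h was 0.46 ± 0.12, with an unadjusted p of 0.00145 and an adjusted p of 0.571 in limma, so a genotype effect limited to 12 h was not shown. The call at 12 h held without the replicate 2 libraries (0.51, adjusted p = 0.0308) but not without the filter on low values (0.0955) or without the trend in the prior (0.0705), within a range of 0.000931 to 0.0955 over the 21 alternatives.

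**Figure D2:**
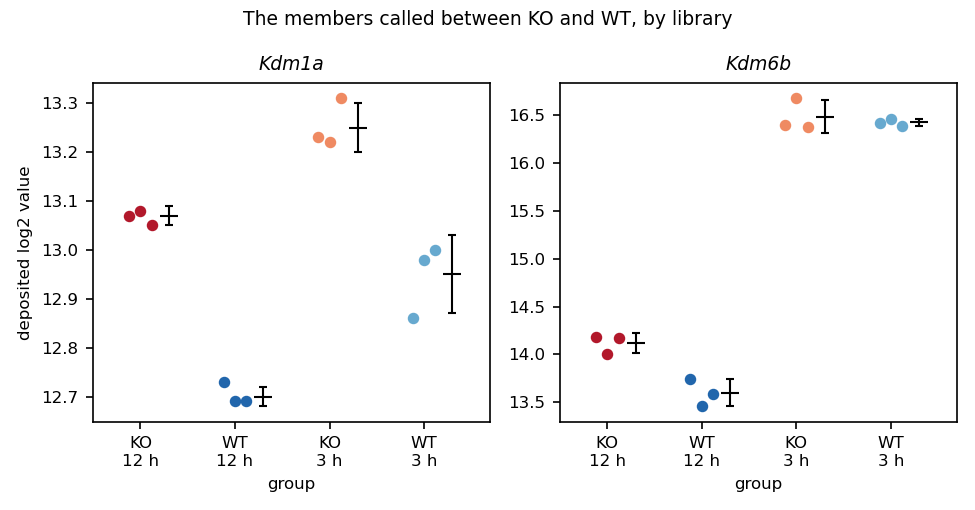
Points are the deposited log2 values of Kdm1a and Kdm6b in each library of the 4 groups, with the mean and SD of 3 libraries beside them; the axes do not start at 0. Kdm1a was higher in KO than in WT at both times, and Kdm6b at 12 h, where both groups stood far below their 3 h values.

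None of the other 46 members was called between the genotypes at either time. The median KO minus WT difference over the 48 members was -0.01 at 12 h and 0.01 at 3 h, beside -0.01 and -0.00 over all genes tested. KO and WT libraries did not overlap for 5 members at 12 h, or 10.4% beside 12.8% of all genes, and for 4 members at 3 h, or 8.33% beside 11.6%. At 12 h the members beyond Kdm1a and Kdm6b were Ezh2, Smarcc1 and Rcor1, all lower in KO and none called. Ezh2, the catalytic subunit of PRC2, had 12.62, 12.69 and 12.52 in KO libraries, against 12.81, 12.91 and 12.84 in WT libraries. That difference was -0.24 ± 0.08 (adjusted p = 0.278). Beside it, the 30 proliferation genes had a median difference of -0.13 at 12 h with 0 called, and their part in the Ezh2 value was not tested. Smarcc1, a core BAF subunit, had 13.84, 14.00 and 13.97 in KO libraries, against 14.01, 14.02 and 14.06 in WT libraries (-0.10 ± 0.06). Rcor1, the CoREST scaffold, had 11.58, 11.78 and 11.78 in KO libraries, against 11.82, 11.86 and 11.81 in WT libraries (-0.12 ± 0.06). In both genes the highest KO library lay just under the lowest WT library.

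At 3 h the non-overlapping members beyond Kdm1a were Kdm1b, Hdac3 and Hdac5. Kdm1b, the second flavin-dependent H3K4 demethylase, had 11.49, 11.44 and 11.39 in KO libraries, against 11.27, 11.29 and 11.22 in WT libraries (0.18 ± 0.07, adjusted p = 0.344). Hdac3, the deacetylase of NCOR complexes, had 12.79, 12.77 and 12.83 in KO libraries, against 12.70, 12.66 and 12.65 in WT libraries (0.12 ± 0.05, adjusted p = 0.482). Hdac5 was the member furthest down, with 8.53, 8.75 and 8.68 in KO libraries, against 9.80, 8.86 and 9.16 in WT libraries. Its difference was -0.62 ± 0.17 (adjusted p = 0.125), and it was -0.88 (0.0107) without WT replicate 2 at 3 h, the lowest of the WT values, within a range of 0.0107 to 0.406 over 21 alternatives. At 12 h Hdac5 differed by 0.03 ± 0.17.

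Among partners of SKI and SnoN, neither the scaffolds nor the class I deacetylases were called between KO and WT. Ncor1 differed by -0.12 ± 0.07 at 12 h and 0.02 ± 0.07 at 3 h, and Sin3a by 0.00 ± 0.05 and 0.04 ± 0.05. Hdac1 differed by -0.00 ± 0.07 at 12 h and 0.04 ± 0.07 at 3 h, and Hdac2 by -0.00 ± 0.06 and 0.07 ± 0.06. The SMAD coactivator genes Ep300 and Crebbp, which encode the acetyltransferases p300 and CBP, differed by -0.16 ± 0.08 and -0.15 ± 0.09 at 12 h and by -0.04 ± 0.08 and -0.10 ± 0.09 at 3 h. Hdac9 had the widest difference of any member at 12 h, -0.63 ± 0.31 (adjusted p = 0.821), with values from 3.20 to 4.12 in KO and 3.94 to 4.80 in WT libraries. Of the 48 members 0 were called for the 12 h minus 3 h difference of differences by limma, as were 0 of all genes, and 4 members had an unadjusted p under 0.05 (8.33%, beside 4% of all genes): Kdm6b, Ezh2, Hdac5 and Kat2b.

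**Figure D3:**
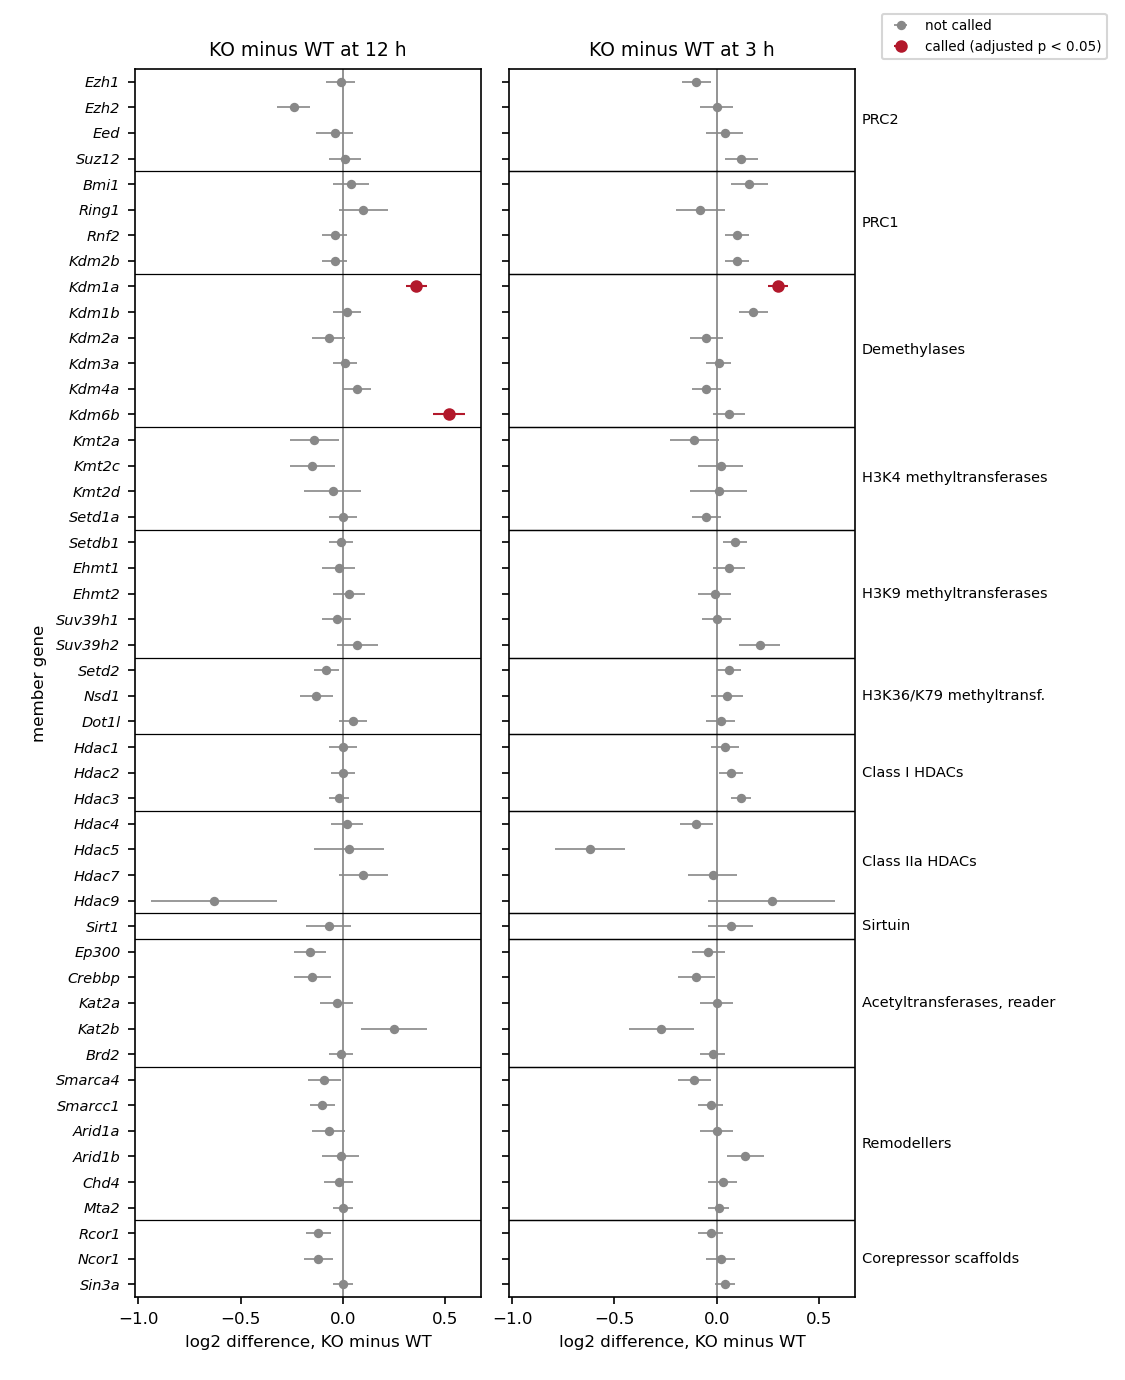
Points are KO minus WT log2 differences of the 48 members at 12 h (left) and 3 h (right), with bars of 1 SE from limma; red marks an adjusted p under 0.05. Kdm1a stands apart from 0 in both panels and Kdm6b at 12 h, and most other points lie within 0.2 of 0.

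More members were called between the times than between the genotypes. Between 12 h and 3 h, 34 members were called in KO cells, 10 higher and 24 lower at 12 h, which is 70.8% beside 68% of all genes tested. In WT cells 29 members were called, 11 higher and 18 lower, or 60.4% beside 67.9%. Higher calls made up 20.8% of the members in KO and 22.9% in WT, beside 34.3% of all genes in each genotype. Lower calls made up 50% of the members in KO and 37.5% in WT, beside 33.6% of all genes in each. But this split rested on scaling, and that of all genes moved with scaling too. Quantile normalization gave 14 members higher and 14 lower in KO and 17 and 12 in WT. Of all genes, 35.6% were then higher and 31.8% lower in KO, and 35.9% and 31.5% in WT. Median centring gave 8 members higher and 29 lower in KO and 8 and 27 in WT. All genes then had 27.8% higher and 41.1% lower in KO, and 28.4% and 38.9% in WT. Median centring moved the median of all genes by -0.13 in KO and -0.11 in WT. The member medians were -0.19 in KO and -0.12 in WT, beside -0.00 over all genes in each. Without the replicate 2 libraries 28 members were called in KO and 23 in WT. Fewer of all genes were called too, 29.7% higher and 29.2% lower in KO and 28.6% and 28.5% in WT. That fit had fewer libraries, and the part of this in the lost calls was not tested. The calls lost were Kdm2a, Kmt2d, Setdb1, Ehmt1, Chd4, Mta2, Ncor1 and Sin3a in KO and Suv39h1, Ep300, Smarca4, Smarcc1, Chd4, Rcor1 and Sin3a in WT, each with the same sign as with all libraries. Rnf2 (-0.22) and Hdac2 (-0.21) were then called in KO and Hdac9 (0.96) in WT.

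In both genotypes 9 members rose, or 18.8% beside 31.1% of all genes, and 17 fell, or 35.4% beside 30.1%. Calls in KO alone numbered 8, or 16.7% beside 6.75% of all genes, and in WT alone 3, or 6.25% beside 6.72%, and 0 of these 11 were called in the test of the difference between genotypes. The remaining 11 members, 22.9% beside 25.3% of all genes, were called in neither. At a minimum change of 1 log2 unit, 8 members were called in each genotype. That is 16.7%, beside 20.5% of all genes in KO and 20.7% in WT. Before rounding, Hdac4 in WT met this minimum and Hdac5 in KO did not, though both changes round to 1.00. Over the same interval 22 of 30 proliferation genes rose in KO and 25 of 30 in WT, with medians of 1.47 and 1.59. Of 14 B cell markers tested 9 fell in each genotype, with medians of -0.82 in KO and -1.05 in WT, and of 5 myeloid and dendritic cell markers tested 5 fell. The part of these shifts in the member changes was not tested.

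Kdm6b fell furthest of all members. From the library values given above, its 12 h level was lower by 2.36 ± 0.08 in KO, or 5.13-fold (limma adjusted p = 3.78e-12), and by 2.82 ± 0.08 in WT, or 7.08-fold (7.95e-13). The other demethylase genes moved less, 4 of them down and Kdm4a up. Kdm3a, which acts on H3K9 methylation, fell by 0.66 ± 0.06 in each genotype. Kdm1a fell by 0.19 ± 0.05 in KO and 0.24 ± 0.05 in WT, though neither call held under quantile normalization. Kdm1b fell by 0.49 ± 0.07 in KO and 0.34 ± 0.07 in WT, and Kdm2a, an H3K36 demethylase, by 0.29 ± 0.08 and 0.28 ± 0.08. Kdm4a, an H3K9 and H3K36 demethylase, rose by 0.49 ± 0.07 in KO and 0.37 ± 0.07 in WT.

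The PRC2 genes did not move as a block. Ezh2 had 12.62, 12.69 and 12.52 in KO at 12 h, against 11.11, 11.19 and 11.39 in KO at 3 h. In WT it had 12.81, 12.91 and 12.84 at 12 h, against 11.25, 11.14 and 11.31 at 3 h. The times did not overlap in either genotype, and Ezh2 rose by 1.38 ± 0.08 in KO, or 2.61-fold (limma adjusted p = 2.95e-10), and by 1.62 ± 0.08 in WT, or 3.08-fold (5.19e-11). Eed, whose product reads the methylated mark within the complex, rose by 0.47 ± 0.09 in KO and 0.54 ± 0.09 in WT. Suz12, the scaffold of PRC2, fell by 0.20 ± 0.08 in KO (adjusted p = 0.0328), a call lost in 8 of 21 alternatives, and had -0.09 ± 0.08 in WT. Ezh1, the alternative catalytic subunit, had -0.05 ± 0.07 in KO and -0.13 ± 0.07 in WT and was not called.

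In PRC1, which ubiquitinates H2A, Kdm2b was the member that changed. Kdm2b brings a variant PRC1 to CpG islands and also demethylates H3K36. Its level was 13.42, 13.26 and 13.36 in KO at 12 h, against 14.85, 14.94 and 14.91 in KO at 3 h. In WT it was 13.49, 13.34 and 13.35 at 12 h, against 14.74, 14.82 and 14.86 at 3 h. Kdm2b fell by 1.55 ± 0.06 in KO, or 2.94-fold, and by 1.41 ± 0.06 in WT, or 2.66-fold, with no overlap between the times (adjusted p = 8.49e-12 and 2.02e-11 in limma), while 8.74% of its exonic bases overlap other annotated genes. The ubiquitin ligase genes Ring1 and Rnf2 and the PCGF subunit gene Bmi1 were not called in either genotype. Their differences ran from -0.28 to 0.08. The lowest was that of Ring1 in WT, which the replicate block called lower (adjusted p = 0.0474, against 0.056 without it). Ring1 was called there in 9 of 21 alternatives, in a range of 0.0105 to 0.243.

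Deacetylase genes went both ways. Hdac7 rose most of all members, with 15.48, 15.25 and 15.35 in KO at 12 h, against 13.32, 13.21 and 12.97 in KO at 3 h. The WT libraries had 15.32, 15.16 and 15.30 at 12 h, against 13.48, 13.16 and 12.91 at 3 h. The rise was 2.19 ± 0.12 in KO, or 4.58-fold (limma adjusted p = 2.22e-10), and 2.08 ± 0.12 in WT, or 4.22-fold (3.64e-10). Hdac4, a class IIa gene like Hdac7, fell. It had 11.08, 11.23 and 11.30 in KO at 12 h, against 12.10, 12.20 and 11.95 in KO at 3 h. Its values in WT were 11.15, 11.18 and 11.22 at 12 h, against 12.24, 12.23 and 12.09 at 3 h. The fall was 0.88 ± 0.08 in KO, or 1.84-fold, and 1.00 ± 0.08 in WT, or 2-fold (adjusted p = 4.97e-08 and 1.12e-08), and 22.4% of its exonic bases overlap a gene model on the opposite strand.

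The starts of this pair, which moved in opposite directions with time, are shown over the same length with CAGAC in capitals. Hdac7 lies on chromosome 15 at 97792664 to 97844502 and Hdac4 on chromosome 1 at 91928779 to 92195699, both on the minus strand, and the RefSeq start used for Hdac4 lies inside the GENCODE gene.
Hdac7, GRCm38.p6, chr15:97844503-97844752, minus strand: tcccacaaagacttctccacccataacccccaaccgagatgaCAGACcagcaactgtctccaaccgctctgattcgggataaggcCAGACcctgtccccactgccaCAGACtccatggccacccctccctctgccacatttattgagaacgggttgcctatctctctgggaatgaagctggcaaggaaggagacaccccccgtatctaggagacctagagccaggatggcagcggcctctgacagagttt
Hdac4, GRCm38.p6, chr1:92180342-92180591, minus strand: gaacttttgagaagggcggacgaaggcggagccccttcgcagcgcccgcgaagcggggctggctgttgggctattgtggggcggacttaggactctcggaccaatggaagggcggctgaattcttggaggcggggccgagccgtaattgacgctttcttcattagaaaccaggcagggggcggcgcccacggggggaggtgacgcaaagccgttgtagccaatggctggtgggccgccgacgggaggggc
The Hdac7 window holds the string 3 times, at 208, 165 and 144 bases before the start, and the Hdac4 window 0 times. Neither window, nor that of Kdm1a, holds the palindrome TTCNNNGAA, a spelling of STAT-binding sites. It occurred in 7.14% of the 27025 promoters compared and, of the 43 members, only in that of Kmt2d.

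Hdac5 rose in KO by 1.00 ± 0.17 (adjusted p = 9.59e-05), with 9.66, 9.55 and 9.74 at 12 h, against 8.53, 8.75 and 8.68 at 3 h. In WT it had 9.56, 9.57 and 9.72 at 12 h, against 9.80, 8.86 and 9.16 at 3 h, a difference of 0.35 ± 0.17 that was not called (0.0905). WT replicate 1 at 3 h lay above every 12 h value, and Hdac5 was called higher at 12 h in WT without that library and with array weights. The difference between the genotypes was 0.65 ± 0.25 (adjusted p = 0.998). Hdac1, a class I deacetylase of the SIN3, NuRD and CoREST complexes, had 13.18, 13.23 and 13.17 in KO at 12 h, against 12.02, 12.11 and 12.25 in KO at 3 h. WT cells gave 13.11, 13.23 and 13.25 at 12 h, against 12.02, 12.03 and 12.20 at 3 h. Hdac1 rose by 1.07 ± 0.07 in KO, or 2.1-fold, and by 1.11 ± 0.07 in WT, or 2.16-fold (adjusted p = 1.67e-09 and 9.64e-10 in limma). Its close paralogue Hdac2 had -0.14 ± 0.06 in KO and -0.07 ± 0.06 in WT and was not called. Hdac3 fell in KO by 0.25 ± 0.05 and had -0.11 ± 0.05 in WT. Sirt1, an NAD-dependent deacetylase, fell in KO by 0.26 ± 0.11 (adjusted p = 0.0462), a call lost in 11 of 21 alternatives, and had -0.12 ± 0.11 in WT.

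Of the H3K9 methyltransferase genes, Ehmt2 rose most. It encodes G9a, which methylates H3K9 with its partner GLP, the product of Ehmt1. Ehmt2 had 12.53, 12.32 and 12.49 in KO at 12 h, against 11.55, 11.37 and 11.26 in KO at 3 h. The WT values were 12.36, 12.44 and 12.45 at 12 h, against 11.54, 11.38 and 11.29 at 3 h. The rise was 1.05 ± 0.08 in KO, or 2.08-fold, and 1.02 ± 0.08 in WT, or 2.02-fold (adjusted p = 1.87e-08 and 2.73e-08 in limma). Ehmt1 had -0.23 ± 0.08 in KO, called lower, and -0.16 ± 0.08 in WT, not called. Suv39h2, one of the paired H3K9 trimethyl enzymes of heterochromatin, fell by 0.88 ± 0.10 in KO and 0.74 ± 0.10 in WT, while Suv39h1 rose in WT by 0.17 ± 0.07 and had 0.13 ± 0.07 in KO. Setdb1, which methylates H3K9 at silenced repeats, rose by 0.19 ± 0.06 in KO and 0.29 ± 0.06 in WT, of which the KO call ended with median centring and without the replicate 2 libraries.

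Dot1l, the H3K79 methyltransferase, had 14.19, 14.20 and 14.35 in KO at 12 h, against 15.22, 15.31 and 15.10 in KO at 3 h. In WT it had 14.26, 14.10 and 14.23 at 12 h, against 15.20, 15.19 and 15.19 at 3 h. Dot1l fell by 0.96 ± 0.07 in KO, or 1.95-fold, and by 0.99 ± 0.07 in WT, or 1.99-fold (adjusted p = 4.29e-09 and 2.68e-09 in limma). The H3K36 enzymes parted, with Setd2 falling by 0.43 ± 0.06 in KO and 0.29 ± 0.06 in WT and Nsd1 rising by 0.43 ± 0.08 in KO and 0.61 ± 0.08 in WT. Of the H3K4 methyltransferases, Setd1a fell by 0.68 ± 0.07 in KO and 0.72 ± 0.07 in WT, but 52.3% of its exonic bases overlap other annotated genes, so its value is uncertain. Kmt2d fell in KO by 0.39 ± 0.14 (adjusted p = 0.0244) and had -0.33 ± 0.14 in WT (0.0522). Kmt2a and Kmt2c were not called in either genotype.

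Brd2, a bromodomain reader of acetylated histones, had 14.40, 14.35 and 14.41 in KO at 12 h, against 15.34, 15.54 and 15.44 in KO at 3 h. WT libraries held 14.33, 14.43 and 14.44 at 12 h, against 15.42, 15.50 and 15.44 at 3 h. Brd2 fell by 1.05 ± 0.06 in KO, or 2.07-fold, and by 1.06 ± 0.06 in WT, or 2.08-fold (adjusted p = 4.52e-10 and 4.02e-10 in limma), with 9.78% of its exonic bases shared with genes on the opposite strand. Kat2b, the acetyltransferase PCAF, fell by 0.42 ± 0.16 in KO, a call lost in 7 of 21 alternatives, and by 0.94 ± 0.16 in WT. Its paralogue Kat2a, or GCN5, had 0.13 ± 0.08 in KO and 0.16 ± 0.08 in WT and was not called. Ep300 rose in WT by 0.24 ± 0.08 and had 0.12 ± 0.08 in KO, and Crebbp was not called in either genotype.

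The remodeller genes fell or were not called. Arid1b, a DNA-binding BAF subunit, had 11.62, 11.77 and 11.83 in KO at 12 h, against 12.83, 12.99 and 12.70 in KO at 3 h. The WT cells had 11.78, 11.74 and 11.75 at 12 h, against 12.69, 12.88 and 12.53 at 3 h. Arid1b fell by 1.10 ± 0.09 in KO, or 2.14-fold, and by 0.94 ± 0.09 in WT, or 1.92-fold (adjusted p = 2.15e-08 and 1.19e-07 in limma), while its alternative subunit Arid1a had -0.04 ± 0.08 in KO and 0.03 ± 0.08 in WT. Chd4 fell by 0.23 ± 0.07 in KO and 0.18 ± 0.07 in WT, calls that ended under quantile normalization. Smarcc1 fell by 0.23 ± 0.06 in KO and 0.17 ± 0.06 in WT, but was not called under quantile normalization, where its WT difference was 0.04. Smarca4, the BRG1 ATPase of BAF, fell in WT by 0.20 ± 0.08 (a difference of 0.04 under quantile normalization), and had -0.18 ± 0.08 in KO. Mta2, a NuRD subunit, fell in KO by 0.13 ± 0.05, a call that turned round under quantile normalization (a difference of 0.14, called higher), and had -0.12 ± 0.05 in WT. Of the corepressor scaffolds, Rcor1 fell by 0.27 ± 0.06 in KO and 0.18 ± 0.06 in WT, Ncor1 fell in KO by 0.20 ± 0.07 (a difference of 0.04 under quantile normalization), and Sin3a rose by 0.17 ± 0.05 in KO and 0.21 ± 0.05 in WT.

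**Figure D4:**
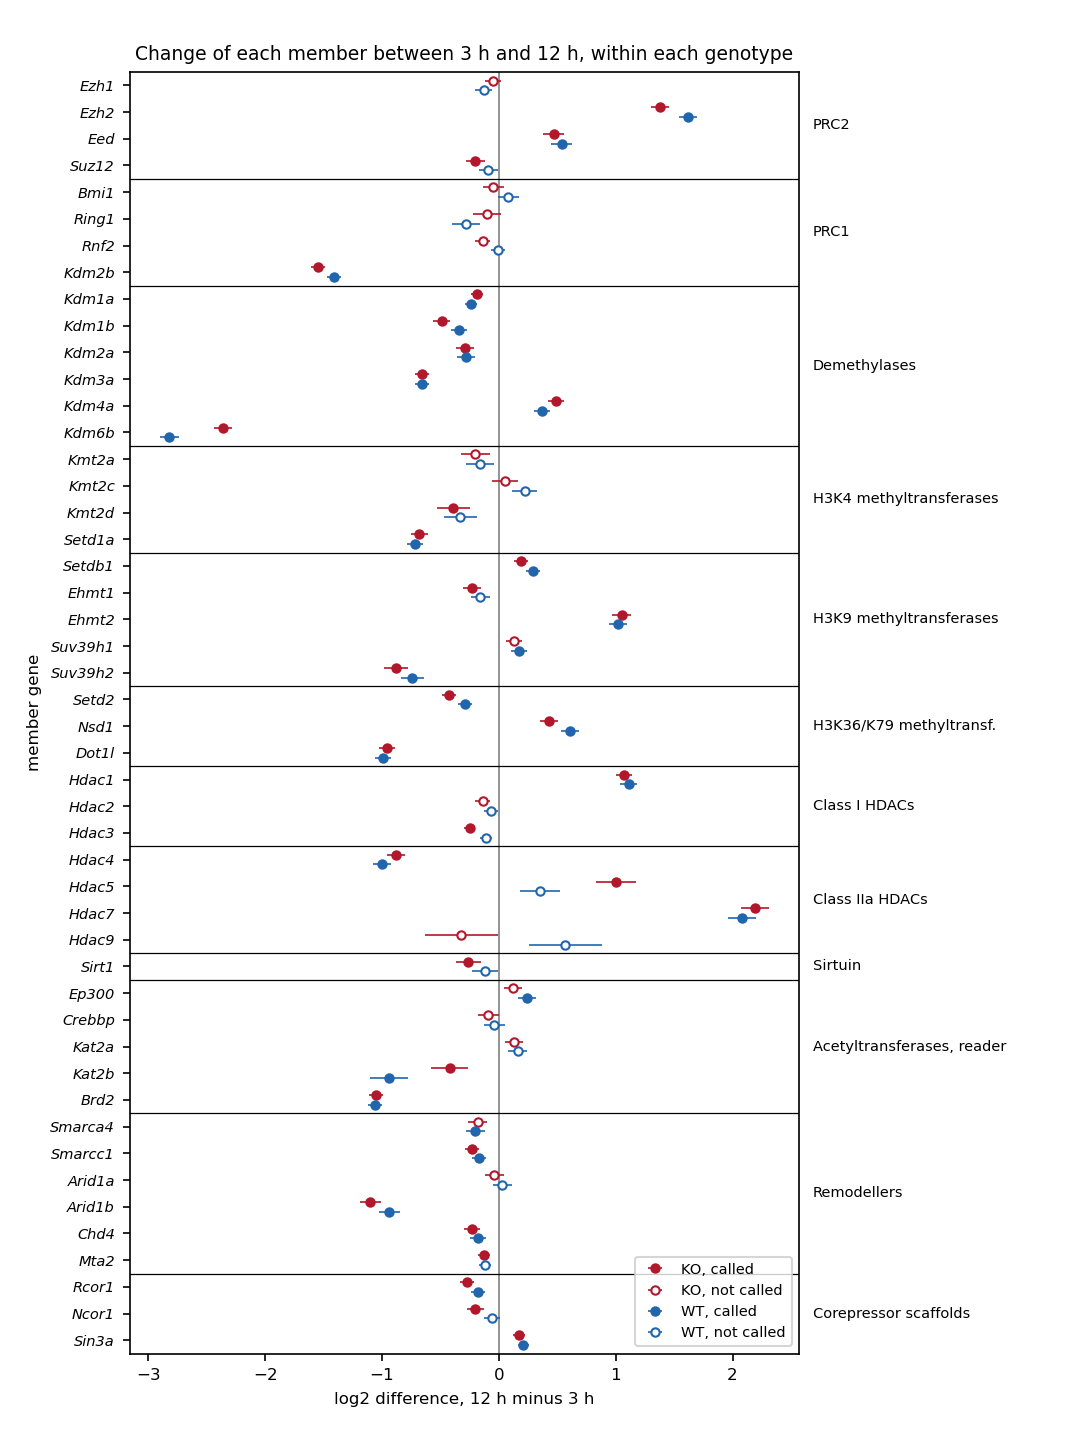
Points are log2 differences of 12 h minus 3 h for the 48 members, KO in red above WT in blue, with bars of 1 SE from limma; filled points have an adjusted p under 0.05. Kdm6b lies furthest left and Hdac7 furthest right, and the KO and WT points of a member mostly lie close together.

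**Figure D5:**
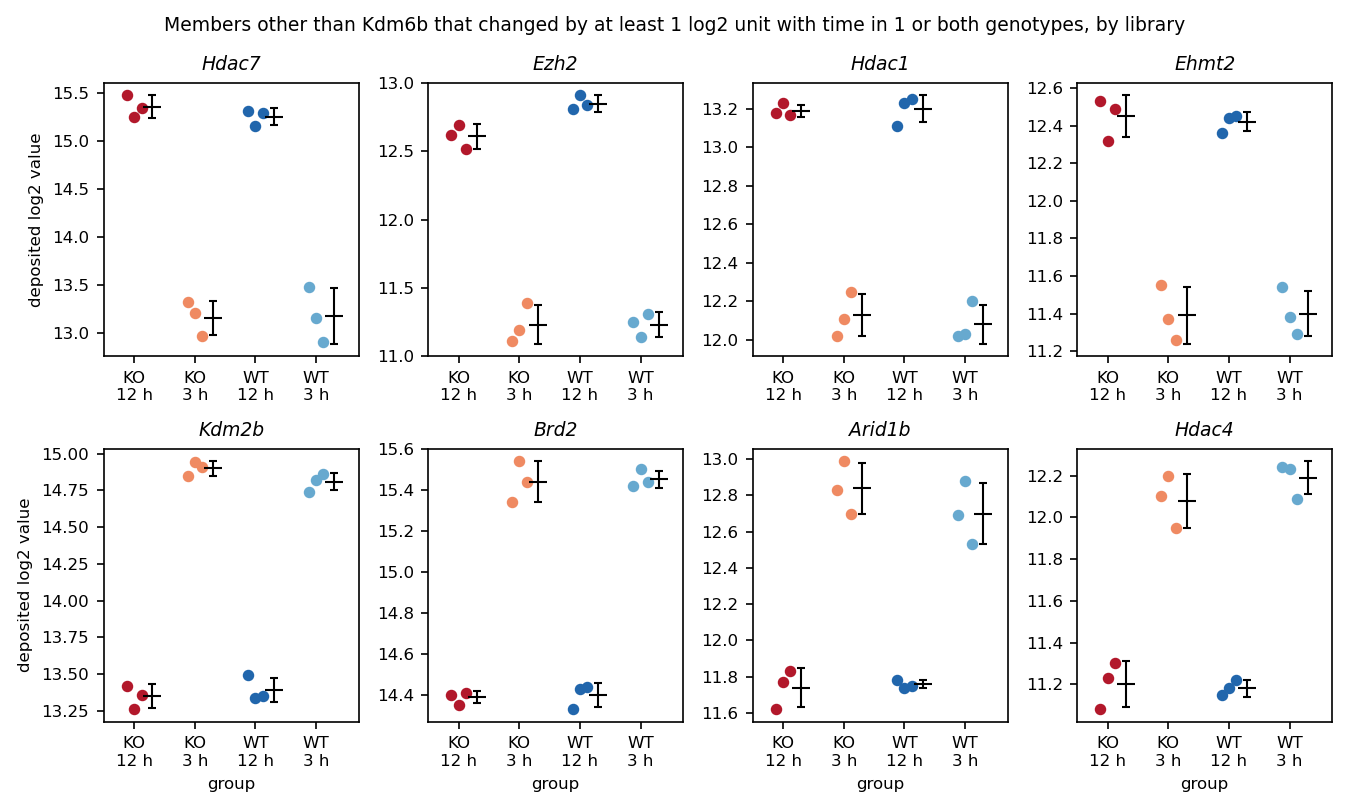
Points are deposited log2 values by library for Hdac7, Ezh2, Hdac1, Ehmt2, Kdm2b, Brd2, Arid1b and Hdac4, with the mean and SD of 3 libraries; axes do not start at 0. In each panel the 12 h and 3 h libraries of a genotype do not overlap, with Hdac7, Ezh2, Hdac1 and Ehmt2 higher at 12 h and the others lower.

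Several paralogue pairs had different calls with time in the same libraries: Ezh2 rose while Ezh1 was not called, Hdac1 rose while Hdac2 was not called, Ehmt2 rose while Ehmt1 fell in KO and was not called in WT, and Arid1b fell while Arid1a was not called. These are side-by-side values, and the difference between the genes of a pair was not tested. Of the 34 calls in KO, 20 held in all 21 alternatives, and of the 29 in WT, 19 did. The 14 KO calls that did not hold throughout were Suz12, Kdm1a, Kdm2a, Kmt2d, Setdb1, Ehmt1, Hdac3, Sirt1, Kat2b, Smarcc1, Chd4, Mta2, Ncor1 and Sin3a, none of which changed by more than 0.42 in KO. The 10 in WT were Kdm1a, Kdm2a, Suv39h1, Setd2, Ep300, Smarca4, Smarcc1, Chd4, Rcor1 and Sin3a.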

How the data were processed

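The deposited log2 values were normalised by the authors, and per the labels no transform is named; rows at exactly 0 in every library numbered 5663, and values ran from -2.37 to 20.1. Depth is therefore unknown, no counting interval was computed, and precision comes from the spread between libraries. Trim Galore, STAR, featureCounts, DESeq2 and the build mm10 appear in the submitters' processing notes; versions, options and annotation: not given in the sources used here. All 12 columns matched 1 sample title each. Genes with a mean of at least 3 were fitted with limma 3.58.1 in R 4.3.3 (4 group means over all 12 libraries, eBayes with trend), two-sided, with Benjamini-Hochberg adjustment over 12436 genes and calls at an adjusted p under 0.05. A fold is the antilog of a difference in deposited log2 values, which may understate changes of low genes. The fit was tested on simulated data with changes added to KO at 12 h alone. That simulation had no time effect and no effect shared by same-numbered libraries, so it does not check the fit where these are present.

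All 48 members are named; those called between genotypes, and those called with a change of at least 1 log2 unit with time, are given by library, as are Dot1l, Hdac5 and the members whose genotypes did not overlap, chosen after their values were seen. The members and lists were chosen with earlier results of these data known. Other chromatin genes are counted, with up to 3 of the largest called genes named per list. Same-numbered libraries deviated together between genotypes (correlations 0.19 to 0.40 at 3 h and 0.17 to 0.50 at 12 h) and between times in WT (0.21 to 0.43). Between times in KO the lowest was 0.06. Libraries of different numbers were not compared, and replicate 2 differed in Xist and Y-linked genes in every group, so pairing by number was not shown. Promoters are RefSeq windows of 250 bases before the outermost start. The windows printed here hold no annotated exon base, and the others were not checked for exons. The alternatives changed the filter, prior, libraries, weights, scaling or replicate block.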

Additional observations from a re-analysis of the deposited data

How the results depend on the processing

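With the replicate block as a term, the counts of members called were 1 at 3 h, 2 at 12 h and 2 for the mean of both times, as without it, and 34 in KO and 30 in WT for 12 h against 3 h; it changed no call between genotypes, and with time it added Ring1 in WT (adjusted p = 0.0474) and changed no other. Between KO and WT at 3 h, where Kdm1a was the 1 member called, 0 were called without the trend in the prior, with the compared groups alone and without the 4 replicate 2 libraries, and leaving out 1 library gave 0 to 2 (Hdac5 was the addition). At 12 h, where 2 were called, 1 was called without the filter on low values, without the trend and without the replicate 2 libraries, and leaving out any 1 library gave 2. For the mean of both times, with 2 called, 1 was called under these same 3 settings, and leaving out 1 library gave 1 to 2. For 12 h against 3 h the count ran from 28 to 37 in KO and 23 to 36 in WT over all alternatives. Calls over all genes moved with the setting as well. Without the replicate 2 libraries 29.7% were higher and 29.2% lower in KO, beside 34.3% and 33.6% as reported. In WT these were 28.6% and 28.5%, beside 34.3% and 33.6%. The difference between the genotype effects had 0 members called under every alternative run. A fit on the compared groups alone gives no value for the mean and for the difference of differences, which use all groups. Depth behind the deposited values is unknown. Hdac9, the lowest member, had an SE of 0.31 at 12 h, the widest of the 48 members there.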

Other observations

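Other chromatin genes, taken from 7 lists that hold none of the 48 members, had 209 genes tested. Of all genes tested, 0.667% were called between KO and WT at 12 h and 1.05% at 3 h. Between KO and WT at 12 h, Skil was called higher and Jade2 lower. At 3 h, 2 were called higher, Skil and Mta3, and 1 lower, Arid4a. Jade2, which encodes a scaffold of the HBO1 acetyltransferase complex, differed by -0.35 ± 0.07 at 12 h (limma adjusted p = 0.03) and -0.07 ± 0.07 at 3 h. Mta3, a NuRD subunit gene, differed by 0.37 ± 0.10 at 12 h (0.14) and 0.47 ± 0.10 at 3 h (0.0321). Arid4a, which encodes a SIN3 complex subunit, differed by -0.24 ± 0.10 at 12 h (0.678) and -0.51 ± 0.10 at 3 h (0.0284).

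Between 12 h and 3 h, 64 of these 209 genes rose and 90 fell in KO, and 66 rose and 90 fell in WT. That is 30.6% up and 43.1% down in KO and 31.6% up and 43.1% down in WT, beside 34.3% up and 33.6% down of all genes in each genotype. The split moved with scaling, as did that of all genes. Quantile normalization gave 75 up and 81 down in KO and 75 up and 77 down in WT. That is 35.9% up and 38.8% down in KO, beside 35.6% and 31.8% of all genes. In WT it is 35.9% up and 36.8% down, beside 35.9% and 31.5%. Median centring gave 47 up and 107 down in KO and 51 up and 97 down in WT. The shares were then 22.5% up and 51.2% down in KO, beside 27.8% and 41.1% of all genes. In WT they were 24.4% up and 46.4% down, beside 28.4% and 38.9%. Hells, a helicase needed for DNA methylation of repeats, rose by 2.85 ± 0.13 in KO and 3.16 ± 0.13 in WT. Chd7 and Chd3, chromodomain helicase genes, fell by 2.48 ± 0.11 and 1.42 ± 0.08 in KO and by 2.46 ± 0.11 and 1.54 ± 0.08 in WT. The heterochromatin protein genes Cbx3 and Cbx5 rose by 1.61 ± 0.09 and 1.49 ± 0.09 in KO and by 1.82 ± 0.09 and 1.76 ± 0.09 in WT. Of 10 further deacetylase genes 7 rose (70%) and 1 fell (10%) in each genotype, with 5 up and 1 down in each under quantile normalization. Median centring gave 5 up and 1 down in KO and 6 up and 1 down in WT. Hdac8 rose by 1.19 ± 0.13 in KO and 1.37 ± 0.13 in WT. Of 33 further polycomb genes 7 rose and 19 fell in KO, and 7 rose and 18 fell in WT, or 21.2% up and 57.6% down in KO and 21.2% up and 54.5% down in WT. Quantile normalization gave 9 up and 16 down in each genotype, and median centring 6 up and 23 down in KO and 7 up and 20 down in WT. Cbx2, which reads the H3K27 methyl mark in PRC1, rose by 1.73 ± 0.19 in KO and 1.64 ± 0.19 in WT. Of 16 further demethylase genes 4 rose (25%) and 8 fell (50%) in each genotype. Quantile normalization gave 4 up and 7 down in each. Median centring gave 3 up and 9 down in KO and 2 up and 9 down in WT. Jmjd1c fell by 1.42 ± 0.09 in KO and 1.23 ± 0.09 in WT.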
